A study of Mus musculus with 2 samples.

Results

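Snai1, Hook2, 1700017B05Rik, Tgm2, Slc15a2, Utp14b, Rgcc, Arhgap27os3, Mgat4b and Grasp are 10 of the 32285 genes counted in single cells from mouse blood. They were picked because their counts were lower in the APP/PS1 library than in the WT library in many of the cell types present. Counts of unique molecular identifiers (UMIs, 1 per captured RNA molecule) were summed per library and per cell type, and the same sums chose the genes and describe them here, so their being lower is a description and no test was made. The genes were not chosen for a shared pathway, and they lie on 8 chromosomes.

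The study profiled blood neutrophils of APP/PS1 transgenic mice, a model of Alzheimer's disease in which the brain deposits amyloid. The 2 groups were female C57BL/6J mice (WT) and female APP/PS1 mice, all 7 months old and untreated, and blood cells of 3 mice per genotype were pooled into 1 library each. Neutrophils were enriched by depleting other cells, yet monocytes, lymphocytes and red cell precursors remained in both libraries. APP/PS1 mice carry human transgenes, which the mouse gene counts do not separate, so no check of the genotype was possible in these counts. Genotype, the set of pooled mice and the library cannot be told apart, and every interval below is a 95% interval for counting error only.

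The 10 genes have unlike roles. Snai1 encodes a zinc finger repressor of transcription known from epithelial-mesenchymal transition, and Rgcc a regulator of the cell cycle that is induced by complement. Tgm2 encodes transglutaminase 2, which cross-links proteins and in macrophages takes part in the clearance of dying cells, Slc15a2 the proton-coupled peptide transporter PEPT2, which also carries bacterial muramyl peptides, and Mgat4b an enzyme that adds a branch to N-glycans in the Golgi. Hook2 encodes an adaptor between microtubules and their cargo, Grasp (tamalin) a PDZ-domain scaffold that binds cytohesins, and Utp14b a retrotransposed copy of Utp14a, whose product belongs to the small subunit processome that matures ribosomal RNA. Arhgap27os3 is annotated as an antisense RNA at Arhgap27, and no role is given here for 1700017B05Rik, a protein-coding gene.

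RefSeq promoter sequences were matched by symbol for 8 of the 10 genes, all but Tgm2 and Mgat4b. Those of the 5 matched genes with the most counts in neutrophils are printed, because each of these genes was lower in the summed neutrophils. Whether they were lower in the same single cells was not tested. Each is the 250 bases before the RefSeq start of the gene, 5′ to 3′ on the gene's strand, in GRCm38.p6, and capitals mark matches to any of 8 motifs searched on both strands. These were the TATA box (TATAAA), the CCAAT box (CCAAT), the GC box (GGGCGG), the cyclic AMP element (TGACGTCA), the AP-1 site (TGANTCA), the E-box (CACGTG), the E-box bound by SNAIL factors (CAGGTG) and the C/EBP site (TTGCNNAA). The windows are chr2:167537945-167538194 on the plus strand for Snai1, chr8:84990373-84990622 on the plus strand for Hook2, chr9:57262600-57262849 on the minus strand for 1700017B05Rik, chr16:36784963-36785212 on the minus strand for Slc15a2 and chr14:79301636-79301885 on the minus strand for Rgcc.
Snai1: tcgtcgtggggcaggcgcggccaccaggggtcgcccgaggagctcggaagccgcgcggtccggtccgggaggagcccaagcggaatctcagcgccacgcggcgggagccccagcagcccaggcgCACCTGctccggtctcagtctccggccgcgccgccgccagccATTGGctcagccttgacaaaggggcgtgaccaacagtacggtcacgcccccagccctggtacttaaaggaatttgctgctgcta
Hook2: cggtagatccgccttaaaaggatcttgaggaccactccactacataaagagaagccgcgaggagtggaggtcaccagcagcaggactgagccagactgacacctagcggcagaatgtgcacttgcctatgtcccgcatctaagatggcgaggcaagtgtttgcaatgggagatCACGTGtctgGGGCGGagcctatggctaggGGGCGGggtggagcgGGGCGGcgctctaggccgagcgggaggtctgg
1700017B05Rik: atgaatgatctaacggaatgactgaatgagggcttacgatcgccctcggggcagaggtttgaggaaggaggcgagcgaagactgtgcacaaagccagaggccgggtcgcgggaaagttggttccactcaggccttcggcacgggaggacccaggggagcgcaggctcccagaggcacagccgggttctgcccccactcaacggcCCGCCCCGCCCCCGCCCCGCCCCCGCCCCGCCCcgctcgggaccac
Slc15a2: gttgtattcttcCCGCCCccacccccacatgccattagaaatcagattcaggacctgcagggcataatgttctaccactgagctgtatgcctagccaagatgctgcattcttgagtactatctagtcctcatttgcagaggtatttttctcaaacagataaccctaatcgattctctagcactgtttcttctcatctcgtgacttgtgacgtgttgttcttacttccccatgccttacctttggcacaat
Rgcc: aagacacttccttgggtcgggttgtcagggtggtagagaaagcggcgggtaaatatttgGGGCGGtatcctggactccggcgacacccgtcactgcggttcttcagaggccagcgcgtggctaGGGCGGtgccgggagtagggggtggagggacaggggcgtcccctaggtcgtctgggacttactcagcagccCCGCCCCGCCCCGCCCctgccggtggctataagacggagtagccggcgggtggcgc

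No single motif was found in all 8 of the 10 genes that had a promoter entry. The GC box was present in 5 of 8 (Hook2, 1700017B05Rik, Slc15a2, Rgcc and Grasp), against 32.7% of all 32817 promoters of the same length. The E-box was present in Hook2 and Utp14b (6.02% of all promoters), the TATA box in Grasp (12.4%), and the CCAAT box (33.8%) and the SNAIL E-box (17.2%) in Snai1. None of the 8 windows held a cyclic AMP element (1.55% of all), an AP-1 site (6.75%) or a C/EBP site (9.57%). Base composition ranged from 45.2% G and C with 4 CpG dinucleotides in Slc15a2 to 77.2% with 37 CpG in Utp14b, beside a median of 52.4% and 6 CpG over all promoters. The printed sequences thus differ in composition as well as in motifs, from the CpG-poor window of Slc15a2 to the run of GC boxes of 1700017B05Rik. A match describes letters in this window and not binding.

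Of 17123 WT and 17645 APP/PS1 cell barcodes, those within the 5th to 95th percentile of genes and UMIs of their library and with at most 10% mitochondrial UMIs were kept, which left 14564 WT cells with 64548783 UMIs and 15208 APP/PS1 cells with 60560111 UMIs. Clusters were named by marker genes. Neutrophils held 5848 WT and 6860 APP/PS1 cells, monocytes 5374 and 3611, B cells 303 and 307, T cells 428 and 541, and natural killer (NK) cells 425 and 764. A further cluster of 1731 and 2725 cells had neutrophil markers but was led by platelet genes, so it was left unnamed and is given apart as the platelet-gene cluster. Monocytes gave 53.8% of the UMIs in WT and 36.9% in APP/PS1. The libraries shared 63 barcodes among their kept cells.

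Over all kept cells, each of the 10 genes had a lower level in APP/PS1. The median log2 ratio of APP/PS1 over WT was -0.85 for the 10 genes, beside -0.07 over the 12689 genes with at least 50 UMIs over both libraries. All 10 lay at or below a log2 ratio of -0.5, the size used throughout to call a gene lower, as did 7.34% of all genes, and nothing is read from that count since the same contrast chose the genes. Snai1 had the lowest ratio, going from 426 to 125 UMIs, or a log2 ratio of -1.68 (interval -1.98 to -1.39), and Slc15a2 went from 838 to 307 UMIs, a log2 ratio of -1.36. The other 8 lay between -0.93 (Hook2, 416 and 205 UMIs) and -0.71 (Rgcc, 2898 and 1666 UMIs). Tgm2 had the most counts, with 8673 UMIs in WT and 4485 in APP/PS1.

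A sum over all cells mixes cell types, and there a change in the share of a cell type and a change of RNA per cell cannot be told apart. For Mgat4b and Grasp, monocytes supplied 86.3% and 85.2% of the WT UMIs. With the APP/PS1 cell types weighted to their WT share of UMIs, the log2 ratio of Mgat4b went from -0.74 to -0.35 and that of Grasp from -0.85 to -0.49. Snai1 went the other way, from -1.68 to -2.09, and the remaining 7 moved by less and lay between -1.45 and -0.62. The genes are therefore described within cell types below.

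The levels placed the genes in different cells. They are given as CPM, the UMIs of a gene for every 1000000 UMIs of that cell type. The comparison is among 5 types: neutrophils, monocytes, B cells, T cells and NK cells. In the WT library Snai1 was highest in neutrophils, at 14.4 CPM, and at most 4.20 CPM in the other 4 types, whose intervals overlapped from one to the next. Tgm2 was highest in neutrophils (174 CPM) and monocytes (133 CPM), and lay between 24.99 and 29.3 CPM in the 3 lymphocyte types, which did not differ beyond their intervals. Rgcc was highest in T cells (144 CPM), followed by neutrophils (62.1 CPM) and monocytes (33.4 CPM), and 1700017B05Rik in B cells (67.7 CPM), with the other 4 types between 25.1 and 31.8 CPM. Mgat4b was highest in monocytes (20.03 CPM). Utp14b, Mgat4b, Arhgap27os3 and Grasp were lowest in neutrophils, at 1.57, 1.57, 1.08 and 0.482 CPM, and below the intervals of the next type up. Slc15a2 lay between 11.1 CPM in monocytes and 19.2 CPM in NK cells. Each neighbour in its order overlapped the next, but the monocyte interval (9.99 to 12.2 CPM) lay below those of neutrophils (14.2 to 18.1 CPM) and NK cells (13.1 to 27.1 CPM). CPM here is not divided by gene length, since the assay counts 3′ ends, so it compares cell types for 1 gene rather than genes with each other.

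**Figure D1:**
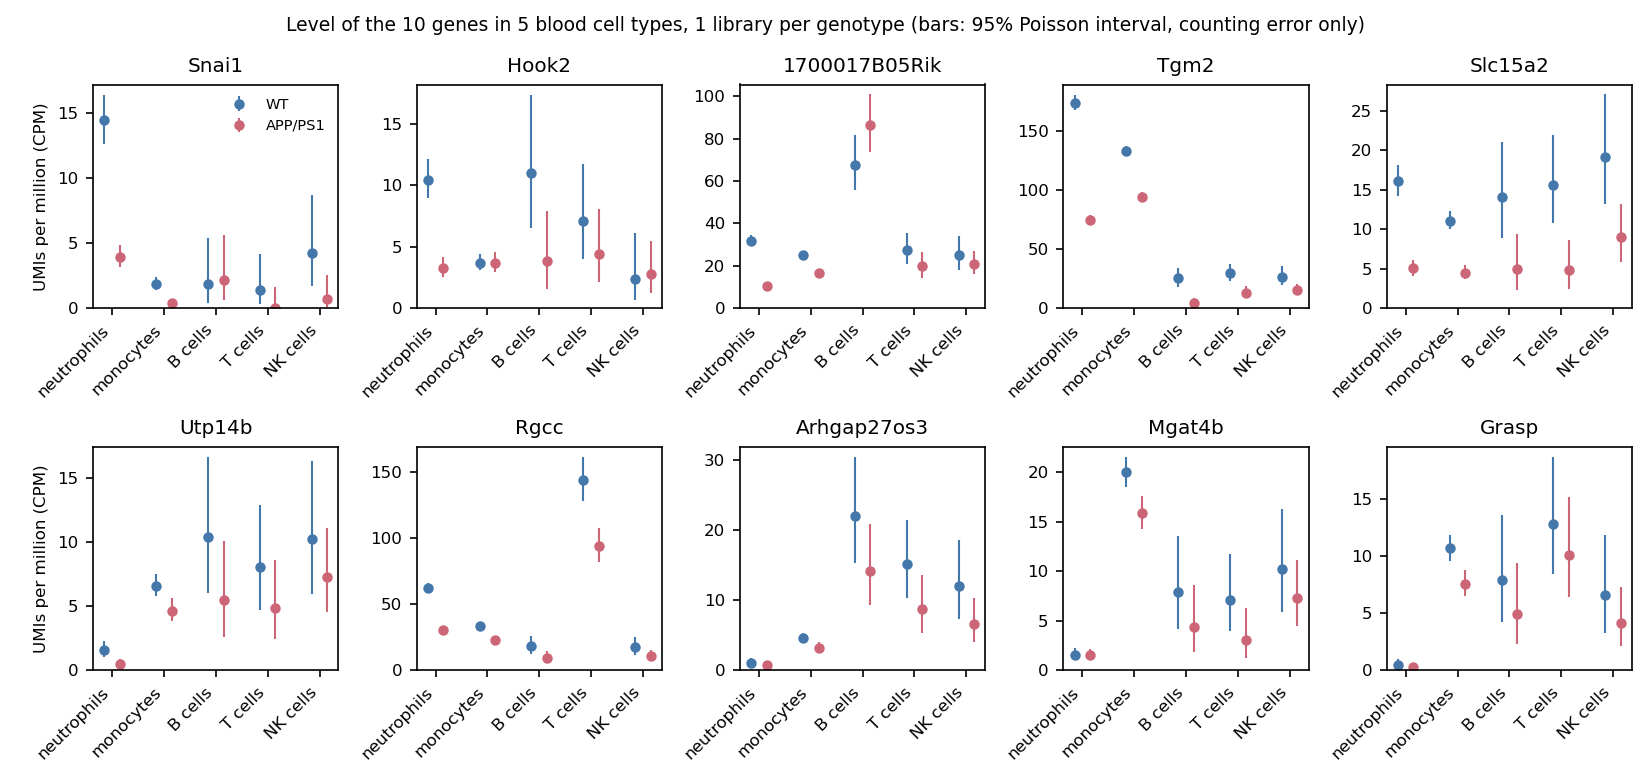
Level of each of the 10 genes (CPM, linear axis from 0, a panel for each gene) in neutrophils, monocytes, B cells, T cells and NK cells of the WT (blue) and APP/PS1 (red) libraries; points are summed counts of 1 library and bars are 95% Poisson intervals. Snai1 was highest in neutrophils (14.4 CPM in WT, 3.92 in APP/PS1), Rgcc in T cells and 1700017B05Rik in B cells, where the APP/PS1 point lay above the WT point.

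In neutrophils, 6 of the 7 genes with at least 50 UMIs were lower, with a median log2 ratio of -1.60 for the 7. Over all 8885 genes measured there the median was 0.06 and 4.48% were called lower, and the choice of genes used these cells too. Snai1 had 239 UMIs in WT and 81 in APP/PS1, or 14.4 and 3.92 CPM. This was 3.67-fold less, a log2 ratio of -1.88 (interval -2.26 to -1.51), and 6 of the 8885 genes had a lower ratio. Hook2, with 173 and 67 UMIs, and Slc15a2, with 267 and 104, were both at a log2 ratio of -1.68, and 1700017B05Rik, with 528 and 216 UMIs, at -1.60. The intervals of these 4 genes overlapped, so their order is not fixed by the counts.

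The genes with the most molecules in neutrophils had ratios nearer to 0. Tgm2 had 2881 UMIs in WT and 1544 in APP/PS1, or 174 and 74.8 CPM, a log2 ratio of -1.22 (interval -1.30 to -1.13). Rgcc had 1031 and 635 UMIs, or 62.1 and 30.8 CPM, a log2 ratio of -1.01 (interval -1.16 to -0.87). The interval of Rgcc lay above those of all 4 genes before it, and that of Tgm2 above those of all but Hook2, which reached -1.27. Mgat4b, the seventh gene, had 26 and 32 UMIs and a log2 ratio of -0.02 (interval -0.81 to 0.79), so no difference was detectable at this depth. Utp14b (26 and 10 UMIs), Arhgap27os3 (18 and 14) and Grasp (8 and 5) had too few molecules in neutrophils for a ratio under the 50-UMI limit.

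For these neutrophil genes, fewer cells carried a UMI, and cells with one carried about as many or slightly fewer. The share of neutrophils with a Tgm2 UMI was 31.9% in WT and 16.7% in APP/PS1, at median depths of 2518 and 2632 UMIs per cell, and cells with Tgm2 held 1.54 and 1.35 UMIs on average. After each cell was thinned to 1000 UMIs the shares were 15.3% and 7.42%. Snai1 was seen in 3.63% of WT and 1.06% of APP/PS1 neutrophils, Slc15a2 in 4.05% and 1.43%, and 1700017B05Rik in 8.003% and 2.80%. Free RNA in the droplets also gives UMIs, and B cells, in which Tgm2 is low, had a Tgm2 UMI in 9.57% of WT and 2.28% of APP/PS1 cells at median depths of 5001 and 5875 UMIs. With called doublets (droplets scored as holding more than 1 cell) removed, B cells held 21 and 5 Tgm2 UMIs, beside 41 and 8 with them. Whether free RNA takes part in the neutrophil shares was not tested.

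The same genes were followed through the clusters of neutrophils. Neutrophils and the platelet-gene cluster were clustered again with the libraries aligned and with the 10 genes left out of the features, which gave 7 clusters. Tgm2 was lower in 7 of 7 clusters, with log2 ratios of -1.62 to -1.16, and 1700017B05Rik in 5 of the 5 in which it had 50 UMIs (-2.27 to -1.28). Snai1 (-2.58 to -1.17), Hook2 (-2.24 to -1.42) and Slc15a2 (-1.66 to -1.40) were each lower in 4 of 4. Rgcc was lower in 6 of 6 (-1.33 to -0.56), with an interval that reached 0 only in the cluster of Camp, Ltf and Ngp, genes of immature neutrophils. In these clusters between 4.78% and 12.9% of all measured genes were called lower. The clusters included one led by interferon-induced Ifit genes, one led by stefin A genes and Retnlg, and one led by Clec4n and Dusp2, and the genes with counts there were lower in each of them.

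In the platelet-gene cluster, 6 of the 6 genes with at least 50 UMIs were lower, at a median log2 ratio of -1.62 (4.63% of 7322 genes called lower). Snai1 went from 99 to 29 UMIs, a log2 ratio of -2.54, and 3 genes had a lower ratio there. Hook2 was at -1.93 and 1700017B05Rik at -1.78, and the remaining 3 (Slc15a2, Rgcc and Tgm2) lay between -1.46 and -1.19. Marker lists gave the following values in neutrophils. The summed haemoglobin genes went from 1802 to 1103 CPM, all 4 of 4 being called lower. The 8 neutrophil markers went from 184914 to 157316 CPM with none called lower. The 8 monocyte markers went from 684 to 673 CPM, with 2 of them, Ms4a6c and Cx3cr1, called lower. The platelet markers were at 349 and 363 CPM, and the 13 mitochondrial genes at 3266 and 2770 CPM. In the platelet-gene cluster, the platelet markers were at 2264 and 2474 CPM. The mitochondrial genes were at 4248 and 3783 CPM there, and the haemoglobin genes at 1742 and 1020 CPM. Their part in the differences was not tested.

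**Figure D2:**
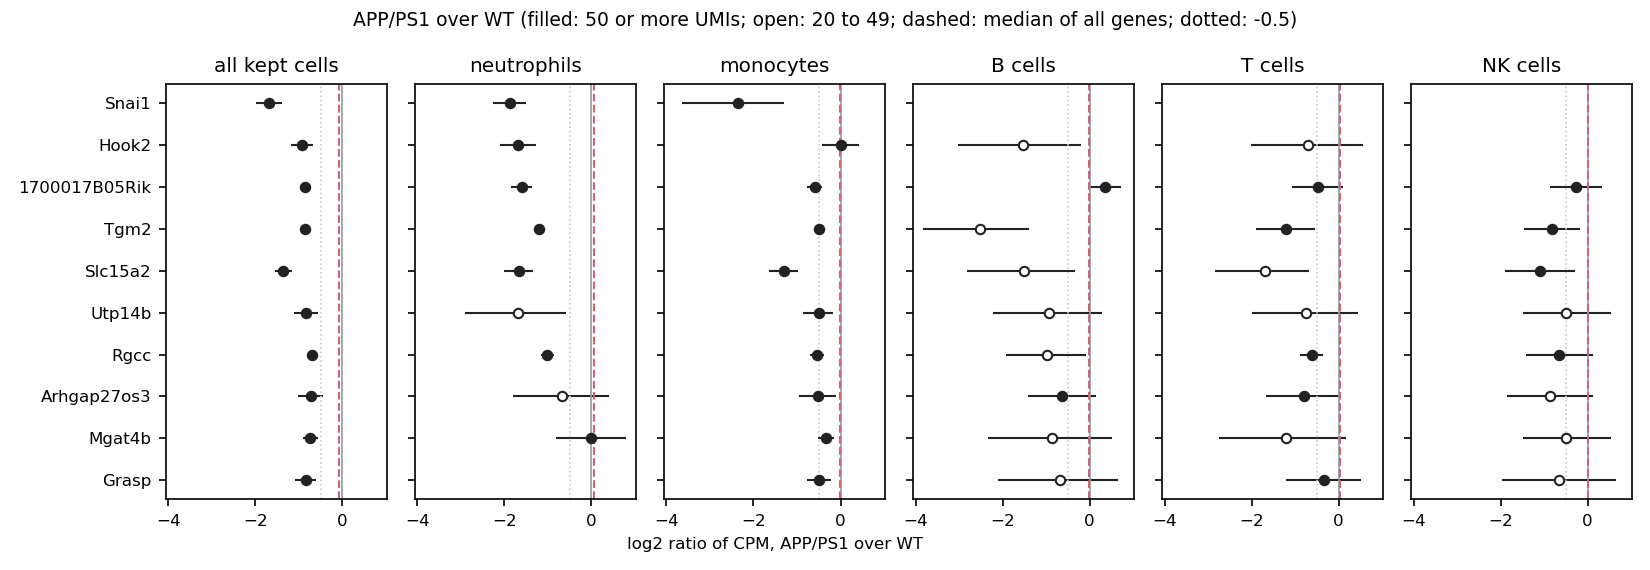
Log2 ratio of CPM, APP/PS1 over WT, for the 10 genes in all kept cells and in 5 cell types; filled points had at least 50 UMIs over both libraries, open points 20 to 49, bars are 95% counting intervals, the dashed line is the median of all measured genes and the dotted line marks -0.5. Most points lie left of 0, and the exceptions are Hook2 in monocytes (0.00) and 1700017B05Rik in B cells (0.35), with Mgat4b in neutrophils close to 0 (-0.02).

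In monocytes all 10 genes had at least 50 UMIs, and 6 were called lower, with 9 of 10 intervals below 0. Of the 11157 genes measured there, 4.06% were called lower and 20.2% had an interval below 0. The median log2 ratio of the 10 was -0.51, against -0.02 over all genes, and the median was nearer to 0 than that in neutrophils. Snai1, at 64 and 8 UMIs, was again the lowest, with a log2 ratio of -2.37 (interval -3.64 to -1.30), and Slc15a2 followed with 384 and 100 UMIs, or 11.1 and 4.47 CPM, at -1.31 (interval -1.64 to -0.99). 1700017B05Rik, Rgcc and Arhgap27os3 lay between -0.59 and -0.52. Utp14b (229 and 104 UMIs), Tgm2 (4609 and 2105 UMIs) and Grasp (369 and 169 UMIs) were at -0.50, -0.50 and -0.49, Utp14b just past the limit and the other two just short of it, and Mgat4b (695 and 356 UMIs) was at -0.33. Utp14b was at -0.49 with library sizes scaled by the TMM method or with percentiles over both libraries together, which ends its call. With called doublets (droplets scored as holding more than 1 cell) removed, 4 of 9 genes were called lower and 3 of the 6 calls were lost, as Snai1 fell to 23 and 2 UMIs, 1700017B05Rik was at -0.49 and Arhgap27os3 at -0.36, while Grasp passed the limit at -0.51.

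Hook2 was the exception in monocytes. It had 127 UMIs in WT and 82 in APP/PS1, or 3.66 and 3.67 CPM, and a log2 ratio of 0.00 (interval -0.42 to 0.42), beside -1.68 (interval -2.11 to -1.27) in neutrophils. The intervals do not meet, but the difference between the cell types was not tested, as each genotype has 1 library. Its level in APP/PS1 neutrophils, 3.25 CPM, lay within the interval of the monocytes of that library (2.92 to 4.55 CPM). In the monocytes that the limits on depth had removed, Hook2 went from 144 to 68 UMIs, a log2 ratio of -0.65 (interval -1.09 to -0.23). In WT these removed cells held Snai1, which was highest in neutrophils, at 6.45 CPM, beside 1.84 CPM in the kept monocytes. Whether neutrophil RNA takes part in their Hook2 value was not tested. With called doublets removed, Hook2 in monocytes was at 0.16 (96 and 74 UMIs).

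Monocytes formed 2 clusters, and some of the genes had unlike ratios in them. One was led by Cd300e, Fabp4 and Cd36, and the other by Fn1, F13a1, Vcan and Ccr2, the last being the chemokine receptor of classical monocytes. Grasp went from 251 to 76 UMIs in the Cd300e cluster, or 17.0 to 8.09 CPM, a log2 ratio of -1.07 (interval -1.46 to -0.70). In the Ccr2 cluster it had 118 and 93 UMIs, or 5.91 and 7.17 CPM, a log2 ratio of 0.28 (interval -0.13 to 0.68). The 2 intervals do not meet, and over all monocytes Grasp was at -0.49. The difference between the clusters was not tested.

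Rgcc had the same order of the clusters, and Tgm2 the reverse. Rgcc was at 19.1 and 7.77 CPM in the Cd300e cluster, a log2 ratio of -1.30 (interval -1.69 to -0.92), and at 43.9 and 33.9 CPM in the Ccr2 cluster, a log2 ratio of -0.37 (interval -0.54 to -0.20). Tgm2 was at 263 and 203 CPM in the Cd300e cluster, a log2 ratio of -0.37 (interval -0.45 to -0.29), and at 36.8 and 15.03 CPM in the Ccr2 cluster, a log2 ratio of -1.29 (interval -1.53 to -1.06). For Grasp and Rgcc the cluster of larger decrease was the Cd300e cluster, and for Tgm2 it was the Ccr2 cluster, in which its level was lower. Slc15a2 was lower in both (-1.53 and -1.11), as was 1700017B05Rik (-0.68 and -0.55), while Hook2 stayed near 0 in both (-0.07 and 0.07).

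**Figure D3:**
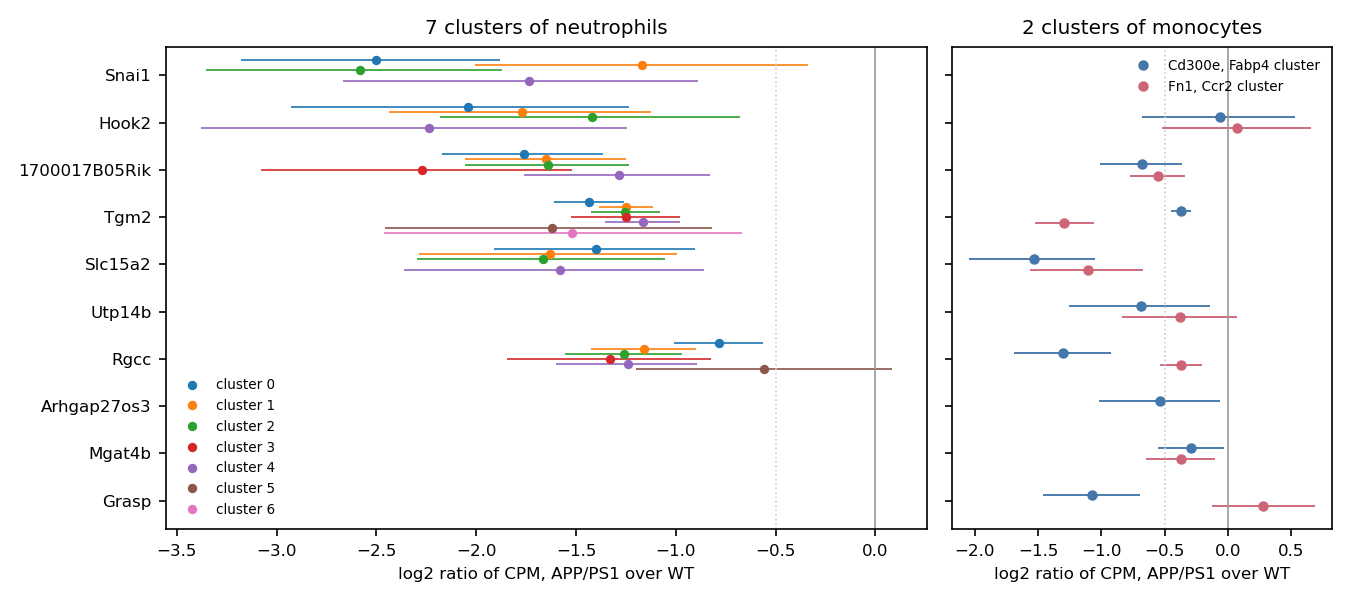
Log2 ratio of CPM, APP/PS1 over WT, per gene within the 7 clusters of neutrophils (left, colours are clusters) and within the 2 clusters of monocytes (right), for values with at least 50 UMIs; bars are 95% counting intervals and the dotted line marks -0.5. On the left every point lies below -0.5, and on the right Grasp and Rgcc were lower in the Cd300e, Fabp4 cluster and Tgm2 in the Fn1, Ccr2 cluster.

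In T cells, Rgcc was the member with the most counts, with 304 and 214 UMIs or 144 and 93.7 CPM, a log2 ratio of -0.62 (interval -0.88 to -0.36). Of 5 genes with 50 UMIs, 3 were called lower, beside 6.72% of 7371 genes. The other 2 called lower were Tgm2 (62 and 29 UMIs, -1.21) and Arhgap27os3 (32 and 20 UMIs, -0.79, with an interval that reached 0.06). With called doublets removed, Tgm2 (15 and 13 UMIs) and Arhgap27os3 (26 and 16 UMIs) fell under the limit in T cells, and Rgcc was at -0.73. Rgcc had unlike ratios in the 2 clusters of T cells. In the cluster led by Cd8b1 and Cd8a it was at 76.3 and 37.2 CPM (log2 ratio -1.04, interval -1.48 to -0.60), and in the cluster led by 5830411N06Rik, with Tcrg-C1 and Trdc of gamma-delta T cells among its leading genes, at 377 and 337 CPM (-0.16, interval -0.49 to 0.16).

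In NK cells, 3 of 4 genes with 50 UMIs were called lower, beside 3.91% of 7240 genes. With called doublets removed, all 3 of these fell under the limit, at 45 UMIs for Rgcc, 48 for Slc15a2 and 37 for Tgm2, and no member was called there. Slc15a2 had 32 and 26 UMIs, or 19.2 and 9.004 CPM, a log2 ratio of -1.09 (interval -1.90 to -0.30), and Tgm2 had 44 and 43 UMIs, a log2 ratio of -0.82. Rgcc, at 29 and 32 UMIs, had -0.65 with an interval that reached 0.13. 1700017B05Rik was at -0.28 with an interval from -0.87 to 0.33.

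B cells held a departure in 1700017B05Rik. Among the 5 types its level was highest in these cells. It had 111 UMIs in WT and 158 in APP/PS1, or 67.7 and 86.4 CPM, a log2 ratio of 0.35 (interval -0.01 to 0.72). A UMI of this gene was seen in 85 of 303 WT and 108 of 307 APP/PS1 B cells. Basophils, a small cluster outside the 5 types (72 and 43 cells), held more of it, at 187 and 156 CPM. There it had 69 and 34 UMIs, a log2 ratio of -0.26 (interval -0.89 to 0.36), and was not called lower. Arhgap27os3, with 36 and 26 UMIs, was at -0.63 (interval -1.41 to 0.14) and was the other gene with 50 UMIs there, beside 8.88% of 6292 genes called lower. Tgm2 had 41 and 8 UMIs in B cells, 49 in all and so under the 50-UMI limit, and gets no call there. The 8 neutrophil markers summed to 12899 and 6512 CPM in these B cells, with 6 of the 7 that had 50 UMIs called lower, and the 4 haemoglobin genes to 13048 and 3334 CPM. In T cells the same neutrophil markers were at 12917 and 13956 CPM and in NK cells at 19215 and 17774 CPM. Whether free RNA takes part in these lymphocyte values was not tested.

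Across the 5 cell types, 28 of 50 pairs of a gene and a type had at least 50 UMIs, and 26 of these had a log2 ratio below 0, 19 of them at -0.5 or less. Within single types, from 3.91% (NK cells) to 8.88% (B cells) of all genes were at -0.5 or less. The same sums chose the genes, so nothing is read from these counts. The only member with 50 UMIs in all 5 types was 1700017B05Rik, whose ratio in B cells was above 0. At that limit no member thus had a ratio below 0 in every type (6.12% of 5522 genes did). At a limit of 20 UMIs, 7 members were measured in all 5 types and 6 of them had a ratio below 0 in each (Tgm2, Slc15a2, Utp14b, Rgcc, Arhgap27os3 and Mgat4b), beside 6.06% of 7653 genes. Slc15a2 was at -1.09 or below in all 5. In red cell precursors only Tgm2 (96 and 46 UMIs) had 50 UMIs. Its log2 ratio was -0.10 (interval -0.64 to 0.43), and it was not called lower. The other 9 members fell under the limit there. Of these, Rgcc (17 and 11 UMIs) was at 0.34 and 1700017B05Rik (22 and 2 UMIs) at -2.49. Snai1 (9 and 0 UMIs), Slc15a2 (9 and 0) and Hook2 (10 and 0) had no UMI in APP/PS1. The upper ends of their log2 intervals were -0.01, -0.01 and -0.20. With called doublets removed, the cluster of red cell precursors held 131 WT and 55 APP/PS1 cells, beside 260 and 140 with them. Whether RNA of other cells takes part in the Tgm2 and other values of red cell precursors was not tested.

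The cells left out by the limits on depth were counted apart, since they come from the same mice but took no part in the sums above. They may still have taken part in the choice of the genes. In these 2474 WT and 2350 APP/PS1 cells all 10 genes had a negative log2 ratio, from -2.31 for Snai1 (194 and 34 UMIs) to -0.39 for Grasp (180 and 120 UMIs). This sum mixes cell types and has no share over all genes beside it, so nothing is read from the count. In the left-out neutrophils Snai1 had 58 and 13 UMIs (-2.84), 1700017B05Rik 133 and 59 (-1.85) and Tgm2 600 and 449 (-1.10). They share the library with the kept cells and are no replicate.

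Genes outside the 10 were ranked in the same way. Among genes with 50 UMIs in each of the 5 types, 4 of 5522 (0.0724%) were at -0.5 or less in every type, and the next in order, Pde4b, just missed it with -0.50 in NK cells. Hbegf, a growth factor of the EGF family, had 1007 and 55 UMIs in neutrophils, and its least lowered type was at -4.51. Cd14, the co-receptor for lipopolysaccharide, had 17076 and 7133 UMIs in neutrophils (-1.57) and was at -1.15 in NK cells. Gm47283 (-0.98) and the ribosomal protein gene Rpl29 (-0.73) were the other 2. They were chosen by the size of their least lowered value and are given for scale.

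The 10 genes do not share a neighbourhood on the chromosomes. In GRCm38, Snai1 lies at chr2:167538195-167542814 and Tgm2 at chr2:158116402-158146436, 9.39 Mb apart, and Mgat4b (chr11:50210890-50235103) and Arhgap27os3 (chr11:103344753-103350124) are 53.1 Mb apart. Hook2 (chr8:84990603-85003349), 1700017B05Rik (chr9:57253117-57262612), Slc15a2 (chr16:36750177-36784962), Utp14b (chr1:78658038-78671512), Rgcc (chr14:79288756-79301645) and Grasp (chr15:101224188-101232756) have a chromosome each. Of the 10 nearest measured genes on each side of each, 19 of 200 (9.5%) were called lower over all kept cells, beside 7.34% of all genes. In neutrophils the share was 9 of 147 (6.12%, beside 4.48%) and in monocytes 13 of 175 (7.43%, beside 4.06%).

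The nearest measured neighbours had values of their own. Rnf114 and Ube2v1, on either side of Snai1, were at -0.03 and -0.12 in neutrophils. Junb, the immediate early gene next to Hook2, was at 0.37 there, and Nr4a1, the orphan nuclear receptor next to Grasp, at -0.01 in monocytes. Lbp, which encodes the lipopolysaccharide-binding protein and is the nearest measured gene to Tgm2 on one side, was lower itself, with 205 and 62 UMIs over all kept cells and a log2 ratio of -1.63, while Rprd1b on the other side was at -0.43. Slc15a2 lies beside the stefin A cluster, whose genes are abundant in neutrophils, and 7 of its 20 neighbours were higher by 0.5 or more over all kept cells, among them Stfa3 (148 and 343 UMIs, 1.30) and Stfa1 (2344 and 4404 UMIs, 1.002). Within neutrophils 1 of 14 was higher by that much, Stfa3 at 1.12, with Stfa1 at 0.48 and Stfa2l1 at 0.13. Stefin A genes are near-identical copies, so the split of reads among them is uncertain.

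**Figure D4:**
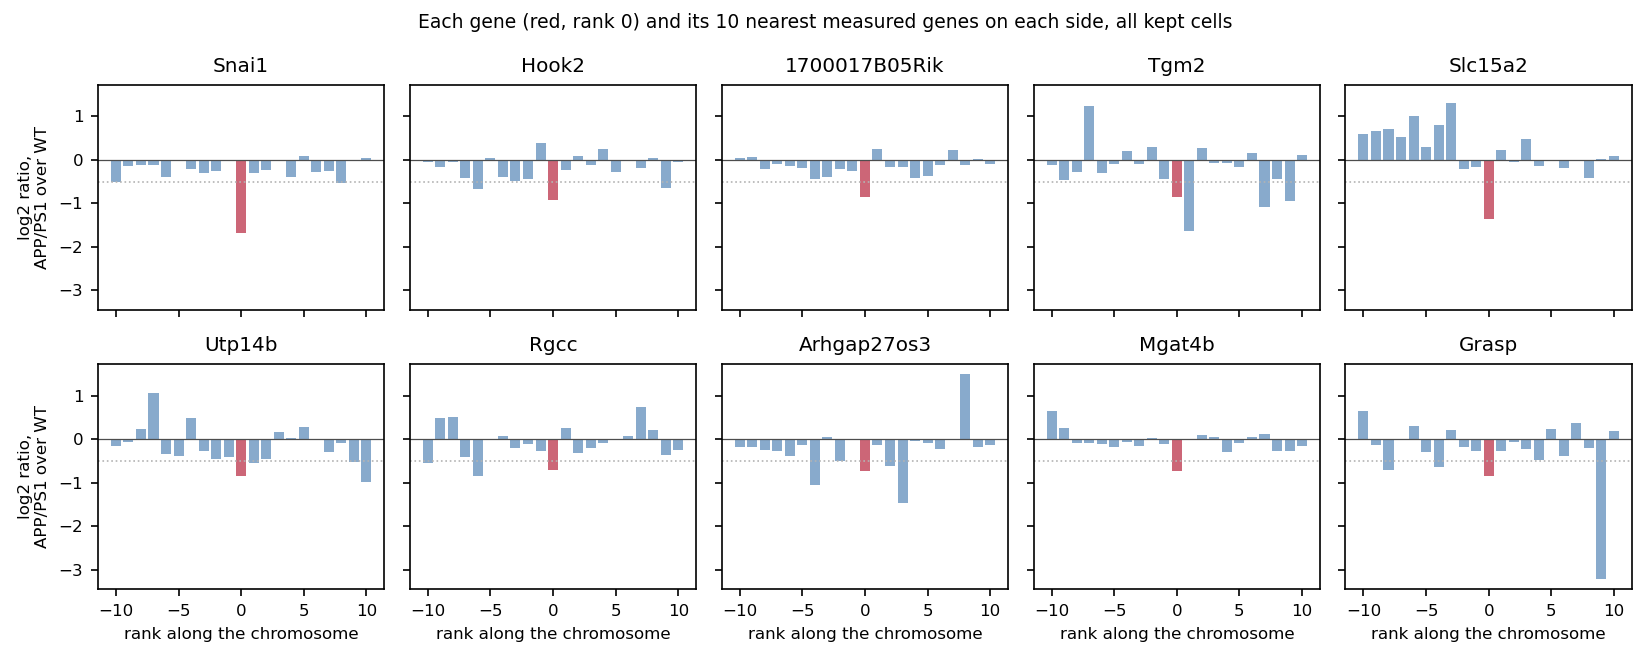
Log2 ratio of CPM, APP/PS1 over WT, in all kept cells, for each of the 10 genes (red bar, rank 0) and its 10 nearest genes with at least 50 UMIs on each side (blue bars, by rank along the chromosome); the dotted line marks -0.5. Blue bars past the dotted line are few (19 of 200), and those left of Slc15a2 are mostly above 0.

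Some genes overlap others. Utp14b shares 244 exon bases with Acsl3 on the same strand, so their reads can be confused. Acsl3 had 192 and 124 UMIs over all kept cells (-0.54) and was at -0.29 in monocytes, where Utp14b was at -0.50. Tgm2 overlaps Rprd1b and Gm20412 on the opposite strand, by 370 and 633 exon bases. Arhgap27os3 shares no exon base with Arhgap27 on the opposite strand, which was at -0.12 over all kept cells (1799 and 1551 UMIs) and at 0.01 in monocytes.

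Relatives and partners of the 10 genes, listed by textbook role, were counted in the same way. Of 90 such genes, 70 had at least 50 UMIs over all kept cells, 11 of them were called lower and none higher, beside 7.34% lower and 6.71% higher of all genes, with a median log2 ratio of -0.14. Within neutrophils 3 of 53 were called lower and 4 higher, beside 4.48% and 6.38% of all genes. Within monocytes 2 of 65 were lower, beside 4.06% of all genes, and 1 was higher. For Snai1, the related repressors Zeb1 and Zeb2 were at 0.34 and -0.18 over all kept cells, and Snai2 and Snai3 had 1 and 39 UMIs in all. For Utp14b, none of the 30 other processome genes was called lower over all kept cells, with its parent gene Utp14a at -0.11, and 1 of 24 was called lower in T cells. For Hook2, none of 8 measured adaptors and partners was called lower over all kept cells, with Hook3 at -0.05, and 1 of 5 was called lower in B cells.

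Transglutaminases were the family with most genes called lower over all kept cells, 3 of 4, beside 7.34% of all genes. The family was singled out after its values were seen, so nothing is read from the count. These were Tgm3 (876 and 504 UMIs, -0.71), F13a1, the coagulation factor XIII A chain (16447 and 10409 UMIs, -0.57), and Epb42 (37 and 13 UMIs, -1.42), a membrane protein of red cells. Tgm3 was at -0.62 in neutrophils. Within types, 1 of 3 was called lower in neutrophils, 1 of 3 in monocytes and 1 of 1 in T cells. The shares of all genes there were 4.48%, 4.06% and 6.72%. F13a1 marks one of the monocyte clusters, and the share of UMIs from monocytes was lower in APP/PS1, as given above. The share of UMIs from red cell precursors was also lower, at 3.01% in WT and 1.64% in APP/PS1. Among peptide transporters and the receptors of muramyl peptides, Slc15a3 and Slc15a4 were at -0.09 and -0.12, Nod1 was at 0.23, Nod2 at -0.45 and their kinase Ripk2 at -0.57, and in monocytes Nod2 went from 541 to 225 UMIs (-0.63).

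Among N-glycan branching enzymes, Mgat4a was at 0.12 and Man2a2, a Golgi mannosidase, at -0.71, with 41 and 23 UMIs in neutrophils (-1.15). Among the partners of Rgcc, Ccnb2 (57 and 36 UMIs, -0.57) and the complement receptor C3ar1 (153 and 84 UMIs, -0.77) were called lower over all kept cells, while C5ar1 was at 0.43. Within single types, 0 of 2 measured partners were called lower in monocytes, 0 of 1 in neutrophils and 1 of 1 in B cells. Among the relatives and partners of Grasp, Cyth3 was at -0.51 and Cytip at -0.29. Arhgap27os2 and Arhgap27os1, antisense RNAs of the same locus as Arhgap27os3, had 439 and 271 (-0.60) and 38 and 13 UMIs (-1.46) over all kept cells. Most of the Arhgap27os2 UMIs came from monocytes (405 and 235), where it was at -0.15 and not called lower. Arhgap27os1 had 31 and 7 UMIs in monocytes, under the 50-UMI limit. Of 17 immediate early genes, which cells induce within minutes of a stimulus, 7 were called higher and 1 lower over all kept cells, beside 6.71% of all genes called higher, with Fos at 0.77 and Jun at 0.91. In neutrophils 6 of 17 were called higher, beside 6.38% of all genes, and 2, Nr4a2 and Nr4a3, lower, and the summed level of the 17 went from 18753 to 25120 CPM.

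The 10 genes did not share 1 pattern over cells. Over the 17 groups of a library and a cell type with at least 50 cells, the Pearson correlation of log2(CPM + 1) was highest for Arhgap27os3 with Grasp (r = 0.88) and Utp14b with Arhgap27os3 (0.76), and lowest for Tgm2 with Arhgap27os3 (-0.56). The 17 points share 2 libraries, so these are descriptions without a test. The 50-UMI limit was not applied to these points, and some rest on few UMIs. Grasp had 8 and 5 UMIs in neutrophils, 3 and 6 in the platelet-gene cluster and 2 and 0 in red cell precursors. In the last 2 of these, Arhgap27os3 had 10 and 5 and then 4 and 1 UMIs, and Utp14b 10 and 11 and then 4 and 1. Among 10526 genes, the pattern of Tgm2 was most like those of Tgfbi (0.96), Thbs1 and Tlr2 (0.95 each), that of Rgcc most like that of Cd6 (0.88), and that of 1700017B05Rik most like that of Casz1 (0.92). For Snai1 it was Prps1l1 (0.90), Gm568 and Ovgp1 (0.84 each), and for Slc15a2 Homez (0.86). Hook2 had the least similar neighbours, with Rab23 first at 0.78.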

How the data were processed

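Single-cell RNA-seq of blood cells was analysed from 1 WT and 1 APP/PS1 library (10x 3′ v3 chemistry). The deposited files hold raw UMI counts of every called cell, which the authors obtained with Cell Ranger 5.0.0 on the 10x Genomics mm10 reference and did not normalize. The groups came from the sample labels. Totals were 92458623 UMIs in WT and 84870864 in APP/PS1, with medians of 3345 and 3115 UMIs per cell.

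Counts were filtered with the limits of the study's methods (5th to 95th percentile of genes and UMIs, taken here per library, at most 10% mitochondrial UMIs, genes in at least 3 cells), log-normalized to 10000 UMIs and clustered with Seurat 5.3.0 (R 4.3.3) on 1998 variable features, 15 principal components and a resolution of 0.2, without the members, of which 2 had been among the variable features. Clusters were named by marker genes. Neutrophils were clustered again with anchors between the libraries at a resolution of 0.3, leaving out the members and genes over 0.5 log2 apart. Scrublet (scanpy 1.11.5) was used to mark doublets (1548 cells in WT, 1286 in APP/PS1, at the WT threshold of 0.217 for both, because the automatic threshold called 0 cells in APP/PS1), which stayed in, except in an alternative.

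UMIs were summed per library and cell type and given as CPM. With 1 library per genotype no test was made. Levels have exact Poisson intervals, ratios exact conditional intervals and both are at the 95% level, for counting error only. A ratio was given from 50 UMIs over both libraries and called lower at a log2 ratio of -0.5 or less. On simulated counts of the neutrophils, the true ratio lay within 95.7% of the intervals (8885 genes). These counts were drawn with counting error only, so a share near 95% follows from the design. It says nothing of the spread between cells, mice or libraries. Positions and neighbours are from GENCODE M21 (GRCm38), and promoters from RefSeq (GRCm38.p6).

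The members and lists were chosen with earlier results of these data known. The text names the 10 members and the 5 other genes with the lowest least-lowered value. It names only some of the members' listed relatives and of the 2 nearest measured genes on each side of a member. Only some of the 3 genes most like each member in pattern are named. These and other named genes were chosen after their values were seen. Alternatives were other cell filters, doublet removal, TMM library sizes (edgeR 4.0.16), library sizes without abundant gene classes, the mean over cells, cells thinned to 1000 UMIs, cells named by single markers, members kept among the features and other minimum counts. After the data had been seen, weighting of cell types, no minimum count, and the counts of relatives and neighbours within neutrophils or monocytes were added.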

Additional observations from a re-analysis of the deposited data

Results flagged for a closer look

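Of the 10 genes, 2 had a ratio above 0 in a cell type in which they were measured at 50 UMIs. Hook2 was at a log2 ratio of 0.0029 in monocytes (127 and 82 UMIs, interval -0.42 to 0.42). It was at -1.68 in neutrophils, the only other type with 50 UMIs. 1700017B05Rik was at 0.35 in B cells (111 and 158 UMIs, interval -0.01 to 0.72), beside -1.60 in neutrophils and -0.59 in monocytes. It was at -0.48 in T cells (interval -1.07 to 0.11) and -0.28 in NK cells (interval -0.87 to 0.33). Its intervals in B, T and NK cells thus all held 0. With 1 library per genotype, these differences between cell types were not tested.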

How the results depend on the processing

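The median log2 ratio of the 10 genes over all kept cells ranged from -0.77 with APP/PS1 weighted to the WT cell types to -1.03 as a mean over cells. Of 303 values of single members under an alternative, 299 kept their sign, and the other 4 were Hook2 in monocytes (-0.30 with no percentile limits, -0.01 without abundant gene classes, -0.03 with members among the features) and Mgat4b in neutrophils (0.35 as a mean over cells). The 19 of 28 values called lower became 12 of 21 with called doublets removed, 34 of 45 at a minimum of 20 UMIs and 12 of 17 at 200. With doublets removed, from 3.6% (monocytes) to 7.26% (B cells) of all genes were called lower within single types. No share of genes called lower is given at the other minimums. The count of members below 0 in all 5 types, 0 at 50 UMIs, was 2 with no percentile limits, 1 with percentiles over both libraries together, 6 at 20 UMIs and 7 with no minimum. Among the cells kept here, 6.12% of genes at 50 UMIs and 6.06% at 20 were below 0 in all 5. No share over all genes is given with no percentile limits, with percentiles over both libraries together or with no minimum. Nothing is read from the counts there. Over all kept cells, where 7.34% of all genes were called lower, 11 of 70 relatives and 19 of 200 neighbours (9.5%) were. Relatives called lower went from 11 to 7 with no percentile limits, and neighbours from 19 to 11. No share over all genes is given beside the 7 and the 11, so nothing is read from them. Within neutrophils, 3 of 53 relatives and 9 of 147 neighbours (6.12%) were called lower, beside 4.48% of all genes. Within monocytes these were 2 of 65 and 13 of 175 (7.43%), beside 4.06% of all genes. The cause was not tested. No paired analysis was possible because each genotype has 1 library. Depth limits Utp14b, Arhgap27os3 and Grasp in neutrophils and Snai1 and Hook2 in lymphocytes.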
